A study of Mus musculus with 19 samples.

Results

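The 50 genes described here encode parts of the sarcomere other than the myosin heavy chains, with the desmin, filamin and Xin proteins that attach it and the chaperones that fold or stabilise it. They were chosen as a list of gene symbols, by a rule that uses no measured value but with earlier results of these data known, and all 50 were found in the GENCODE mouse annotation used, among 35598 genes with summed counts. Of the 50, 49 passed the filter on low counts. The exception was Myl3, the slow and ventricular essential light chain, which lay between 0 and 0.218 CPM (counts scaled to a common library size) in every library.

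The RNA came from primary myoblasts of mouse hind-limb muscle, the progeny of muscle stem cells, which stop dividing and fuse into multinucleated myotubes in culture. The libraries form 6 groups. WT cells gave 3 libraries of proliferating myoblasts in growth medium at 24 h, 3 of differentiated myotubes at 48 h and 4 of fused myotubes at 72 h. Cells with the Glud1KO label, described in the series as Glud1-deficient and called KO-labelled here, gave 3, 2 and 4 libraries at the same stages. Glud1 encodes the mitochondrial glutamate dehydrogenase. Strain, age, the kind of allele and how it was made are not given in the sources used here. The labels number biological replicates without saying whether these were animals or cultures, so the p-values measure only the spread between these samples.

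A sarcomere is the contractile unit of striated muscle. Thin filaments of actin, anchored in the Z-disc by alpha-actinin and carrying the troponin complex, slide past thick filaments of myosin, which are held in register by the M-band, while titin spans from the Z-disc to the M-band and nebulin runs along the thin filament. In cultured muscle cells these proteins appear as myoblasts leave the cell cycle, embryonic, cardiac and slow isoforms are made alongside fast ones, and assembly needs chaperones for myosin and for the thin filament.

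Each library held between 16168131 and 30742634 estimated counts. Levels below are CPM after TMM scaling, and differences are log2 fold changes ± SE from edgeR's quasi-likelihood test, with p-values adjusted by the Benjamini-Hochberg method over 15123 genes and a call at an adjusted p below 0.05. The check of the labels by Glud1 RNA depends on the scale. In counts the labels did not differ at a call: WT myoblasts had 192, 191 and 184 CPM, KO-labelled myoblasts 190, 185 and 186 CPM, and the 3 stages gave edgeR adjusted p-values of 0.849, 0.193 and 0.748. Per unit of transcript length (TPM, counts divided by length and scaled to a fixed total), every KO-labelled library lay below every WT library of its stage, at 139 ± 3.21 against 169 ± 6.10 TPM (SD) at 24 h, 61.7 ± 3.96 against 83.8 ± 3.73 TPM at 48 h and 79.4 ± 2.82 against 102 ± 2.25 TPM at 72 h. With an offset for effective length in the edgeR fit, computed for Glud1 after its values were seen, the differences were -0.26, -0.31 and -0.34 (edgeR adjusted p = 0.000709, 0.000245 and 1.58e-05). The short non-coding transcript Glud1-202, of 699 nt, was assigned 11.1% to 11.9% of Glud1 counts in WT myoblasts. Under the KO label its share at 24 h was 5.96% to 6.44%, and it was also lower, with no overlap, at both later stages. The protein-coding Glud1-201, of 3390 nt, had the larger share under the KO label at every stage, with no overlap. Its mean share was 93.0% against 88.4% for WT at 24 h, 92.4% against 88.4% at 48 h and 93.3% against 87.6% at 72 h. The level of Glud1-201 was not tested, so the lower TPM of the gene does not show less protein-coding RNA. The names of the deposited files mark libraries of both groups as KO, so the genotype is taken from the labels throughout. In any library the markers of heart summed to at most 4.25 CPM, and those of endothelium, of macrophages and of Schwann cells each to at most 2.70 CPM. In these bulk samples, fewer muscle cells and less RNA per muscle cell cannot be told apart.

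Sarcomere RNA went from a trace to a large part of the transcriptome between 24 h and 48 h. In WT cells the 50 genes together took 0.464% ± 0.0220 of all counts (SD, n = 3) in myoblasts, 7.23% ± 0.165 (n = 3) in differentiated myotubes and 8.88% ± 0.224 (n = 4) in fused myotubes. In KO-labelled cells they took 0.339% ± 0.0154 (n = 3), 7.70% ± 0.235 (n = 2) and 9.15% ± 0.140 (n = 4). The KO-labelled share was thus below WT at 24 h, with libraries at 0.321% to 0.350% against 0.442% to 0.485%, and above it at 48 h, with 7.53% and 7.86% against 7.06% to 7.39%. At 72 h the ranges, 9.02% to 9.28% and 8.59% to 9.13%, overlapped. In TPM, the regulatory light chain gene Mylpf had the highest level of any gene in the transcriptome at 48 h and 72 h in both genotypes, at 20550 and 25580 TPM in WT cells, and Myl1 ranked second at 72 h.

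**Figure D1:**
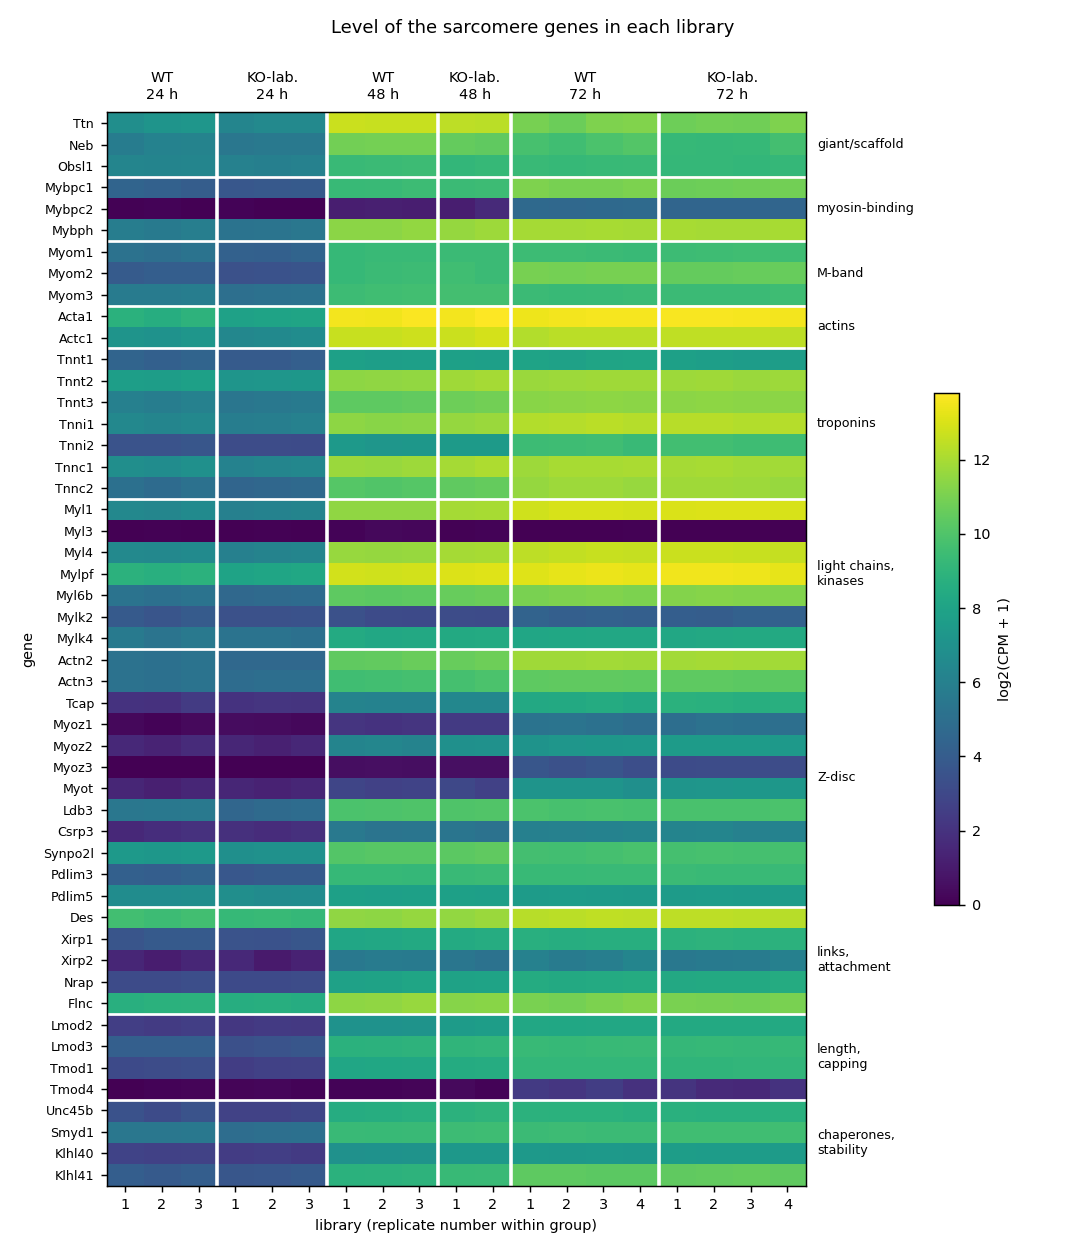
Level of each of the 50 genes as log2(CPM + 1), by colour, in each of the 19 libraries (columns, by genotype, stage and replicate number), with genes in rows by their role in the sarcomere. Nearly all rows brighten from 24 h to 48 h, Ttn and Neb are brighter at 48 h than at 72 h, and Myl3 stays at the bottom of the scale.

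Changes between stages are counted over 45 of the 49 genes, a set taken after the values were seen. Tmod4, Myoz3, Mybpc2 and Myoz1 had at most 13 counts in any myoblast library, below the filter's cutoff of 0.429 CPM, and passed it through later libraries, so their rise over the stages was set by the filter. From WT myoblasts to WT differentiated myotubes, 44 of the 45 genes rose and 1 fell. Over all genes tested, 85.0% were called in this comparison and 42.4% rose and 42.6% fell. The median change of the 45 genes was 4.77 on the log2 scale, against 0.019 for all genes. Without TMM scaling the median of all genes was -0.23 and the same number of these genes rose and fell. The largest rises were those of Mybph, a myosin-binding protein related to the C proteins (5.68 ± 0.07, 51.4-fold), Ttn (5.59 ± 0.12, 48.0-fold) and the cardiac actin gene Actc1 (5.54 ± 0.08, 46.4-fold). Mybph went from 56.1, 48.8 and 57.6 CPM to 2654, 2739 and 2974 CPM, Ttn from 112, 142 and 151 CPM to 6711, 6284 and 6439 CPM, and Actc1 from 141, 130.4 and 149 CPM to 6399, 6345 and 6752 CPM. In each of these the myoblast libraries lay far below the 48 h libraries. The gene that fell was Mylk2, the skeletal myosin light chain kinase, from 14.0, 11.3 and 14.7 CPM to 9.58, 7.79 and 7.46 CPM (-0.71 ± 0.10, edgeR adjusted p = 3.02e-07). Tmod4, a capping protein of the pointed end of thin filaments in adult fast muscle, stood at 0.0871 to 0.141 CPM at 48 h.

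From 48 h to 72 h in WT cells, 33 of the 45 genes rose and 9 fell, where 75.1% of all genes tested were called (37.4% higher, 37.7% lower). Among the 45 the largest rise was that of the Z-disc protein gene Myot, from 6.45, 5.31 and 5.88 CPM to between 116 and 141 CPM (4.50 ± 0.08, edgeR adjusted p = 2.22e-25). As a description, Tmod4 went to between 2.97 and 4.69 CPM, Myoz3 from at most 0.479 CPM to between 8.98 and 11.8 CPM, and Mybpc2, the fast myosin-binding protein C, from at most 1.31 CPM to at least 24.1 CPM. Over all 3 stages, 32 of the 45 genes rose at both steps in WT cells and 26 did so in KO-labelled cells, where 16.9% and 14.6% of all genes tested did. In KO-labelled cells 44 of the 45 genes rose and none was called lower from 24 h to 48 h, where 83.7% of all genes were called (41.3% higher, 42.5% lower), and Mylk2 (-0.26 ± 0.12, edgeR adjusted p = 0.0501) was not called, but was called lower without TMM scaling. From 48 h to 72 h 27 rose and 10 fell in KO-labelled cells, where 70.2% of all genes were called (35.8% higher, 34.4% lower). By 72 h each of the 45 genes was called higher than at 24 h in both genotypes, and without TMM scaling, which put the median of all genes at -0.33 in WT cells, Mylk2 (0.11, edgeR adjusted p = 0.269) was no longer called there. Over all genes tested, 85.5% were called in this WT comparison (42.2% higher, 43.4% lower) and 87.2% in the KO-labelled one (42.7% higher, 44.5% lower).

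The genes that fell between 48 h and 72 h included the longest ones. Ttn, whose longest annotated transcript has 107355 nt and which lies on chr2:76703980-76982547 (GRCm38, minus strand), was at 6711, 6284 and 6439 CPM in the WT libraries at 48 h and at 2022, 1684, 2245 and 2340 CPM at 72 h. Its mean level at 48 h was 312.5% of that at 72 h, a change of -1.64 ± 0.10 (edgeR adjusted p = 1.03e-14). Neb (chr2:52136647-52378474, minus strand) went from 1877, 1929 and 1919 CPM to 879, 755, 939 and 1096 CPM, a change of -1.06 ± 0.10 (edgeR adjusted p = 1.62e-10). Both genes also fell in KO-labelled cells, with changes of -1.50 ± 0.10 for Ttn and -1.15 ± 0.11 for Neb. The result for Ttn in WT cells rests on how length is treated: with the trend of fold change against transcript length removed, its change was -0.17 (edgeR adjusted p = 0.0825) in WT and -0.32 (edgeR adjusted p = 0.00451) in KO-labelled cells, and that of Neb -0.43 and -0.65. An offset for effective length left the change of Ttn at -1.62 in WT and -1.74 in KO-labelled cells. The other genes that fell in WT cells were Synpo2l, Flnc, Actc1, Pdlim5, Myom3, Ldb3 and Obsl1, by between 0.09 and 0.46, of which Ldb3 and Obsl1 changed direction with other length corrections.

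In KO-labelled myoblasts, sarcomere genes were lower. Of the 49 genes, 37 were called and all 37 were lower than in WT myoblasts, by between 0.25 and 0.88 on the log2 scale, while 11.6% of all genes tested were called and 4.86% were higher and 6.69% lower. The median over the 49 genes was -0.43, against 0.014 for all genes. All 7 troponins, the 3 M-band genes, both actins and all 6 light chain and kinase genes tested were among the 37. So were the 4 genes grouped as chaperones and stability: the chaperone gene Unc45b, with Smyd1, Klhl40 and Klhl41. Of the 12 Z-disc genes 5 were called, and of the 5 genes that link or attach filaments 2 were called. Leaving out single libraries left between 31 and 37 genes called, and WT replicate 3 was the library whose absence gave 31.

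The lowest fold changes in myoblasts belonged to 5 genes of different parts of the sarcomere. Myom1, the M-band protein myomesin (chr17:71002633-71126856, plus strand), had 36.0, 32.4 and 36.7 CPM in the WT libraries, against 18.2, 18 and 20.9 CPM under the KO label, a difference of -0.88 ± 0.06 (1.84-fold lower, edgeR adjusted p = 1.11e-10). Ldb3, a PDZ and LIM protein of the Z-disc also known as ZASP, had 43.6, 44.5 and 46.6 CPM against 22.9, 25.8 and 28.6 CPM (-0.81 ± 0.06, edgeR adjusted p = 1.95e-10). It lies on chr14:34526603-34588682 (minus strand), 181 kb from the end of Glud1. Whether this closeness to the targeted gene bears on the difference was not tested.

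Acta1, the skeletal alpha-actin gene (chr8:123891769-123894751, minus strand), fell from 444, 392 and 476 CPM in WT myoblasts to 238, 259 and 269 CPM under the KO label (-0.78 ± 0.07, 1.71-fold lower, edgeR adjusted p = 1.62e-08). Unc45b, the chaperone that folds the myosin head, was at 9.95, 7.87 and 10.6 CPM against 5.47, 5.50 and 6.25 CPM (-0.74 ± 0.10, edgeR adjusted p = 7.21e-06). Mylpf, the fast regulatory light chain (chr7:127208890-127214298, plus strand), was at 457, 422 and 473 CPM against 251, 278 and 295 CPM (-0.72 ± 0.07, edgeR adjusted p = 2.15e-08). For each of these 5 genes every KO-labelled library lay below every WT library. Among 6 muscle cell-state markers, Myog, the bHLH factor that switches on at the start of differentiation, was lower by 0.63 (log2 difference -0.63). Ckm, muscle creatine kinase, was lower by 0.81 (-0.81) at low levels, with means of 2.22 CPM in WT and 1.28 CPM in KO-labelled myoblasts. Pax7, Myf5, Myod1 and the proliferation gene Mki67 were not called in myoblasts. The 5 smooth muscle markers summed to 1180 to 1229 CPM in WT myoblasts and 1197 to 1247 CPM in KO-labelled ones. The 6 fibroblast markers summed to 281 to 288 CPM and 266 to 272 CPM (Lum at 0 in WT), nearly all from Col3a1 (means of 282 and 265.5 CPM). The part of these shifts in the sarcomere differences was not tested.

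By role, the giant scaffold genes were lower in KO-labelled myoblasts: Ttn had 77.9, 88.9 and 88.9 CPM against 112, 142 and 151 CPM in WT (-0.66 ± 0.11, edgeR adjusted p = 0.000143), and Neb had 42.9, 46.4 and 46.6 CPM against 55.0, 67.6 and 71.1 CPM (-0.51 ± 0.12, edgeR adjusted p = 0.00616). The 7 troponin genes lay between -0.56 (Tnnc1) and -0.37 (Tnnt1), so the calcium sensor subunits, the inhibitory subunits and the tropomyosin-binding subunits were lower alike in direction. Among the light chains and their kinases the differences ran from -0.72 (Mylpf) to -0.34 (Myl1). The Z-disc divided: the actinins Actn2 (-0.54) and Actn3 (-0.25), Ldb3, Synpo2l (-0.45) and Pdlim3 (-0.41) were called, while Tcap, Myot, Csrp3, Pdlim5 and the calsarcins Myoz1, Myoz2 and Myoz3 were not. Of those 7, 6 were below 5 CPM in every myoblast library, and Pdlim5 was not. Desmin, Des, the intermediate filament that ties Z-discs together, was lower by 0.33 (-0.33 ± 0.05, edgeR adjusted p = 0.000112). Counting by strand is not given in the sources used here, so reads cannot be told apart from those of a gene on the opposite strand where the 2 share bases. The pairs whose opposite gene had a mean above 1 CPM were Myom1 with Myl12a (881 CPM), Tnnc1 with Nisch (490 CPM), Acta1 with Gm20388, Smyd1 with Krcc1, Tnnc2 with Ube2c and Tmod1 with Tstd2 (33.3 to 75.3 CPM), and Mybph with Adora1, Tnnt3 with Prr33 and Actc1 with A530058N18Rik (2.33 to 3.97 CPM).

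**Figure D2:**
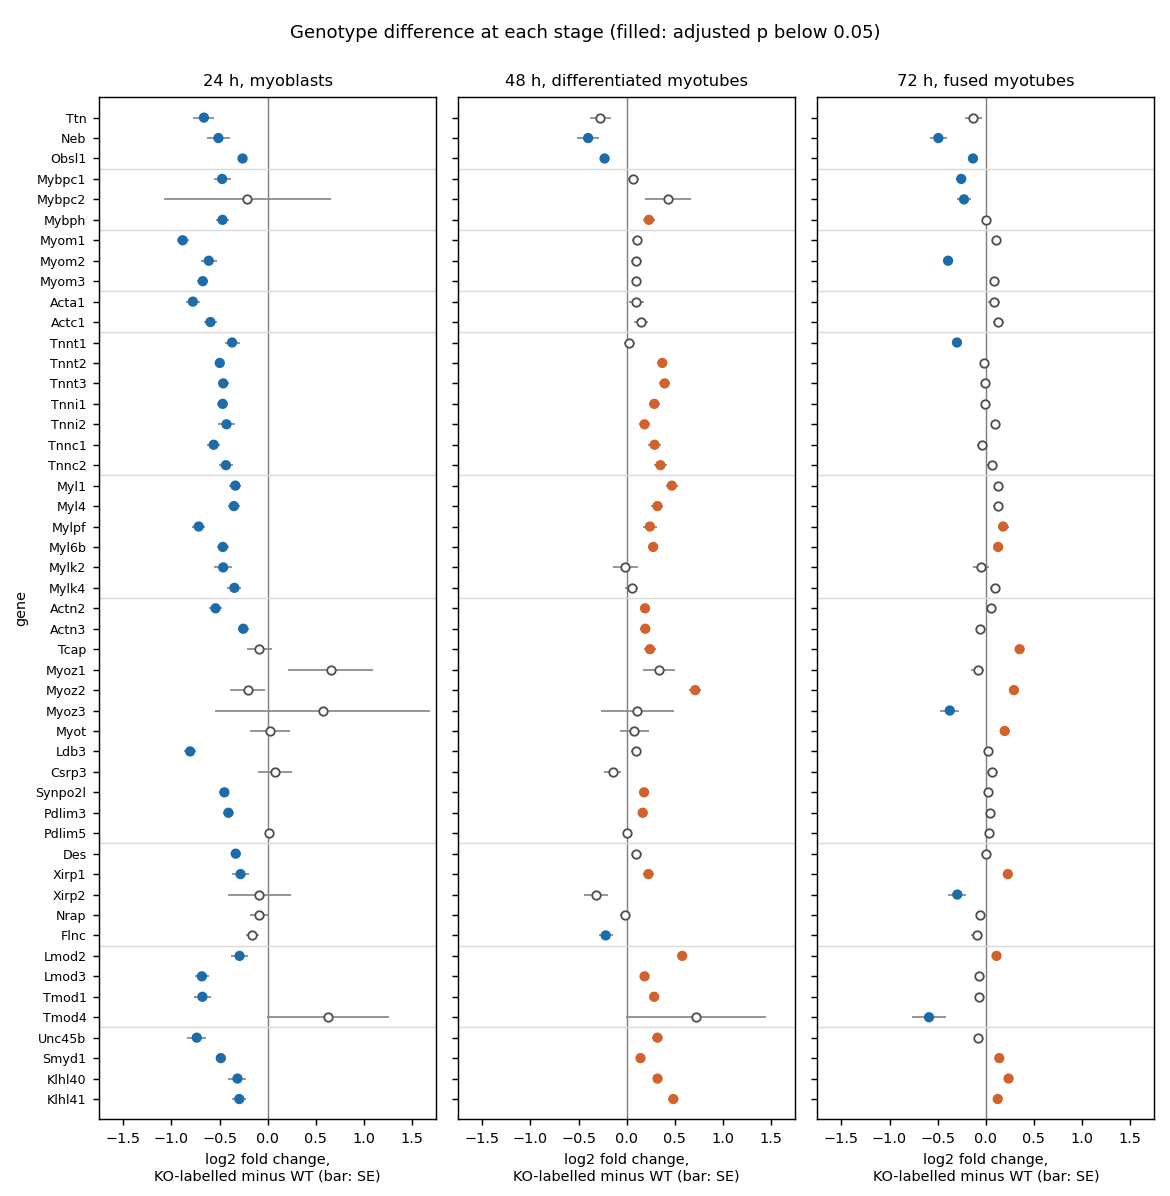
Log2 fold change of KO-labelled against WT cells (x axis, bars show the SE) for the 49 tested genes (y axis, by role) at 24 h, 48 h and 72 h. Filled points passed an adjusted p of 0.05, blue for lower and orange for higher in KO-labelled cells, and open points did not. The 37 filled points at 24 h all lie left of 0, and 25 of the 28 at 48 h lie right of it.

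At 48 h the direction was the opposite for most of the genes called. In KO-labelled differentiated myotubes 28 of the 49 genes were called, 25 higher and 3 lower, where 25.2% of all genes tested were called (11.0% higher, 14.1% lower). The median over the 49 genes was 0.18, against -0.012 for all genes. Among the higher genes were 6 of the 7 troponins and 4 of 6 light chain and kinase genes. Also higher were 3 of 4 genes for thin filament length and capping and all 4 chaperone and stability genes. No gene of these groups was lower. None of the M-band genes and neither actin was called. This group has only 2 libraries, and without KO-labelled replicate 2 the count was 16, of which 15 were higher.

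Myoz2, which encodes a calsarcin that ties calcineurin to the Z-disc (chr3:123006206-123035015, minus strand), had the largest difference among the genes called at 48 h. The WT libraries had 72.5, 79.6 and 71.8 CPM and the KO-labelled ones 120 and 124 CPM, 0.71 ± 0.06 higher (1.64-fold, edgeR adjusted p = 1.23e-09). Lmod2, leiomodin, which lengthens thin filaments, was at 131, 130 and 133 CPM against 188 and 204 CPM (0.58 ± 0.04, 1.49-fold, edgeR adjusted p = 2.03e-11). Klhl41, a Kelch protein that stabilises nebulin, was at 444, 457 and 474 CPM against 620 and 661 CPM (0.48 ± 0.05, edgeR adjusted p = 9.24e-08).

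The fast essential light chain gene Myl1 reached 2955, 2873 and 2850 CPM in WT libraries at 48 h, and 3964 and 4038 CPM in KO-labelled ones (0.47 ± 0.06, edgeR adjusted p = 2.53e-06). Fast troponin T, Tnnt3, was at 1331, 1331 and 1406 CPM against 1713 and 1849 CPM (0.39 ± 0.05, edgeR adjusted p = 5.59e-06). Both KO-labelled libraries lay above all 3 WT libraries for each of these 5 genes, and all 5 stayed called without KO-labelled replicate 2. The 3 lower genes were Neb, Obsl1 and Flnc. Neb fell to 1492 and 1398 CPM under the KO label from at least 1877 CPM in WT (-0.40 ± 0.12, edgeR adjusted p = 0.0118), Obsl1, which links M-band proteins, was lower by 0.23 (-0.23 ± 0.05, edgeR adjusted p = 0.000474), and filamin C, Flnc, had 2517 and 2571 CPM against 2756, 2854 and 3272 CPM (-0.22 ± 0.07, edgeR adjusted p = 0.0304). Without KO-labelled replicate 2, and likewise with the trend against transcript length removed, Obsl1 alone of these 3 was called.

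Other cell-state markers differed at 48 h too. Mki67 was lower in KO-labelled cells by 2.55 (log2 difference -2.55), Pax7 by 0.92 (-0.92) and Myod1 by 0.31 (-0.31), whereas Myog was not called (-0.01). The 6 fibroblast markers summed to 24.0 to 26.7 CPM in WT and to 8.13 to 12.0 CPM in KO-labelled libraries, with Lum at 0 in both. Nearly all of this was Col3a1, at a mean of 24.3 CPM against 9.06 CPM. Col1a1 was also lower on average (0.619 against 0.133 CPM). Pdgfra (0.366 against 0.474 CPM), Dcn (0.0867 against 0.132 CPM) and Thy1 (0.125 against 0.265 CPM) were higher on average. The 5 smooth muscle markers, which differentiating myoblasts also express, summed to 2944 to 3252 CPM against 2241 to 2494 CPM, of which Acta2 (-0.42) and Tagln (-0.98) were called lower and Myh11 and Smtn (0.16) higher. The part of these shifts in the 48 h differences was likewise not tested.

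At 72 h fewer genes were called and the directions were mixed. Of the 49 genes 19 were called, 10 higher and 9 lower in KO-labelled fused myotubes, where 13.0% of all genes tested were called (6.32% higher, 6.72% lower). The median was 0.025, against -0.0063 for all genes. This count was sensitive to the processing. With an offset for effective length it was 9, leaving out WT replicate 1 it was 11, and leaving out KO-labelled replicate 3 it was 12. The 9 genes called with the offset were Tcap, Myoz2, Klhl40, Xirp1 and Smyd1, all higher, and Neb, Myom2, Tnnt1 and Mybpc1, all lower.

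Tcap, telethonin, which caps titin at the Z-disc, had 325, 334, 351 and 314 CPM in WT fused myotubes, against 442, 432, 404 and 410 CPM in KO-labelled ones (0.35 ± 0.04, 1.27-fold higher, edgeR adjusted p = 6.06e-07). The groups did not overlap. Myoz2 was at 136, 149, 154 and 160 CPM against 186, 187, 187 and 174 CPM (0.29 ± 0.05, edgeR adjusted p = 5.17e-05). Klhl40, a partner of leiomodin 3 and nebulin, was at 172, 163, 169 and 160 CPM against 203, 199, 193 and 187 CPM (0.24 ± 0.04, edgeR adjusted p = 3.83e-05). Xirp1, an actin-binding Xin protein of attachment sites, lay above WT in all 4 libraries, at 472, 482, 462 and 459 CPM against 420, 380, 394 and 407 CPM (0.23 ± 0.04, edgeR adjusted p = 0.000921). Myot, at 144, 150, 158 and 159 CPM against 139, 141, 138 and 116 CPM, was 0.20 ± 0.05 higher (edgeR adjusted p = 0.00914), a call lost with the effective-length offset.

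On the lower side at 72 h, Neb had 614, 583, 596 and 818 CPM in KO-labelled libraries, against 879, 755, 939 and 1096 CPM in WT ones, so 1 KO-labelled library lay within the WT range (-0.49 ± 0.09, 1.41-fold lower, edgeR adjusted p = 0.000464). Myom2, the myomesin of fast fibres (chr8:15057653-15133541, plus strand), was at 1465, 1493, 1533 and 1548 CPM against 2011, 1955, 1972 and 1986 CPM, with no overlap (-0.39 ± 0.04, edgeR adjusted p = 5.24e-07). Slow troponin T, Tnnt1, was at 224, 212, 200 and 202 CPM against 252, 240, 264 and 274 CPM (-0.30 ± 0.05, edgeR adjusted p = 5.09e-05). Tmod4 had the lowest fold change at 72 h, with 3.14, 2.11, 2.04 and 3.00 CPM against 4.16, 3.55, 4.69 and 2.97 CPM (-0.59 ± 0.18, edgeR adjusted p = 0.0307). Myoz3, another calsarcin, was at 8.03 to 8.22 CPM against 8.98 to 11.8 CPM (-0.37 ± 0.10, edgeR adjusted p = 0.0132). Both of these low-level genes lost their calls with the offset, and also when either WT replicate 1 or WT replicate 3 was left out.

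Markers of cell state and of other cells differed at 72 h as well. Myf5, a factor of muscle progenitors, was at 118 to 129 CPM in WT and 99.2 to 102 CPM in KO-labelled libraries (-0.31 ± 0.04, edgeR adjusted p = 3.18e-06), whereas Pax7, Myod1, Myog, Ckm and Mki67 were not called. The 6 cardiac markers summed to 3.45 to 4.25 CPM in WT and 1.62 to 2.45 CPM in KO-labelled libraries, mostly from Myh6 (-1.23 ± 0.17, edgeR adjusted p = 1.05e-05), with Nppa and Myl7 at 0 in WT and Nkx2-5 and Myl7 at 0 under the KO label. The 6 fibroblast markers summed to 7.58 to 9.22 CPM against 6.09 to 7.40 CPM, with Lum at 0 in both. Most of this was Col3a1 (means of 4.82 against 3.87 CPM) and Pdgfra (2.78 against 2.73 CPM). The 5 smooth muscle markers summed to 710.2 to 763 CPM against 738 to 788 CPM, of which Tagln was called lower (-0.78 ± 0.20, edgeR adjusted p = 0.0111). The part of these shifts in the 72 h differences was not tested.

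**Figure D3:**
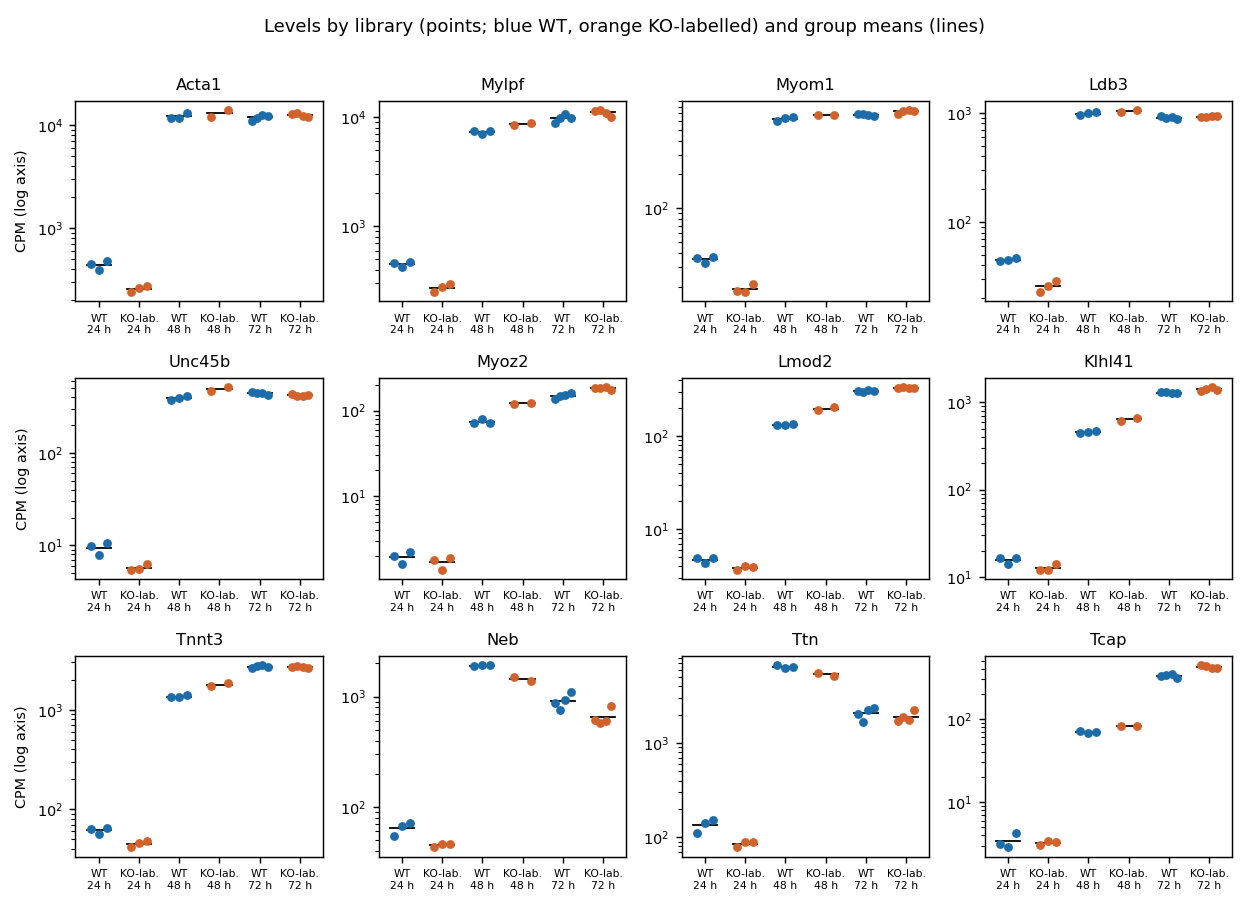
CPM on a log axis in each library (points, blue for WT and orange for KO-labelled cells) and group means (black lines) for 12 of the genes, at 24 h, 48 h and 72 h. At 24 h all KO-labelled points of Acta1, Mylpf, Myom1, Ldb3 and Unc45b lie below the WT points, at 48 h those of Myoz2, Lmod2 and Klhl41 lie above them, and the KO-labelled mean of Neb is the lower one at all 3 stages.

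The difference between genotypes itself changed with stage for most of these genes. From 24 h to 48 h it moved upward for 35 genes and downward for none, where 19.1% of all genes tested were called (7.78% upward, 11.3% downward). From 24 h to 72 h it moved upward for 32 and downward for none (10.3% of all genes called, 5.75% upward and 4.55% downward). From 48 h to 72 h it moved downward for 16 and upward for none (14.8% of all genes called, 8.27% upward and 6.53% downward), and for 10 with the effective-length offset. These comparisons share libraries with each other and with the comparisons within a stage, so they are not separate evidence. The largest shift from 24 h to 48 h was that of Unc45b (1.06 ± 0.11, edgeR adjusted p = 1.16e-07), followed by Myom1 (0.99 ± 0.08, edgeR adjusted p = 1.50e-09), Tmod1, which caps the pointed ends of thin filaments (0.96 ± 0.10), Mylpf (0.96 ± 0.10) and Myoz2 (0.92 ± 0.20). Unc45b, lower in every KO-labelled myoblast library, was at 468 and 510 CPM in KO-labelled libraries at 48 h against 373, 391 and 412 CPM in WT (0.32 ± 0.06, edgeR adjusted p = 8.07e-05), and at 409 to 434 CPM against 422 to 458 CPM at 72 h, where the groups overlapped. Tmod1 was at 4.61, 5.40 and 5.56 CPM in KO-labelled myoblasts against 7.63, 8.17 and 8.99 CPM in WT, but at 48 h the KO-labelled libraries reached 360 and 370.5 CPM against 288, 299 and 311 CPM, so the order of the genotypes turned. The largest downward shifts from 48 h to 72 h were those of Myom2 (-0.49 ± 0.07, edgeR adjusted p = 2.78e-05) and Lmod2 (-0.46 ± 0.05, edgeR adjusted p = 2.12e-07).

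By their calls at the 3 stages, the genes fell into a few patterns. A set of 16 genes were lower at 24 h, higher at 48 h and not called at 72 h, a pattern of 0.807% of all genes tested. A further 7 were lower, then higher at both later stages (0.258% of all genes). Another 9 genes, among them Acta1, Actc1, Myom1, Myom3, Ldb3 and Des, were called lower at 24 h and not called later (2.58% of all genes). Neb and Obsl1 were lower at all 3 stages (0.760% of all genes), although the calls of Neb were lost at 24 h without WT replicate 3 and at 48 h without KO-labelled replicate 2, and Obsl1 was called neither at 24 h nor at 72 h with the effective-length offset, nor at 72 h without WT replicate 1 or KO-labelled replicate 3. The 4 genes Nrap, Csrp3, Pdlim5 and Myoz1 were called at no stage, as were 62.3% of all genes. Of these Pdlim5, a PDZ and LIM protein, had 104, 103 and 107 CPM in WT myoblasts beside 110, 101 and 105 CPM in KO-labelled ones (0.01 ± 0.04).

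The level at 48 h was also taken as a percent of that at 72 h, which describes how the rise was spread over the stages. The median over the same 45 genes was 74.1% in WT and 77.3% in KO-labelled cells, and the KO-labelled percentage was above the WT one for 35 of the 45. Over the 14988 tested genes with counts at 72 h in both genotypes, the medians were 100.5% and 98.5%, and the KO-labelled percentage was above the WT one for 50.2%. Among the sarcomere genes it was above for all 7 troponins, where the median was 53.8% in WT and 66.3% in KO-labelled cells. The KO-labelled percentage was also higher for all 3 thin filament length and capping genes in this set and all 4 chaperone and stability genes. For the 5 filament links it was above in 2. Unc45b had 88.4% of its 72 h level at 48 h in WT and 116.5% in KO-labelled cells: it rose from 48 h to 72 h in WT (0.18 ± 0.05, edgeR adjusted p = 0.00132) and fell in KO-labelled cells (-0.22 ± 0.05, edgeR adjusted p = 0.000532). Tnnt2, cardiac troponin T, also rose in WT (0.27 ± 0.04, edgeR adjusted p = 2.90e-06) and fell in KO-labelled cells (-0.11 ± 0.05, edgeR adjusted p = 0.0391), a difference in course of -0.39 ± 0.06 (edgeR adjusted p = 0.000138).

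**Figure D4:**
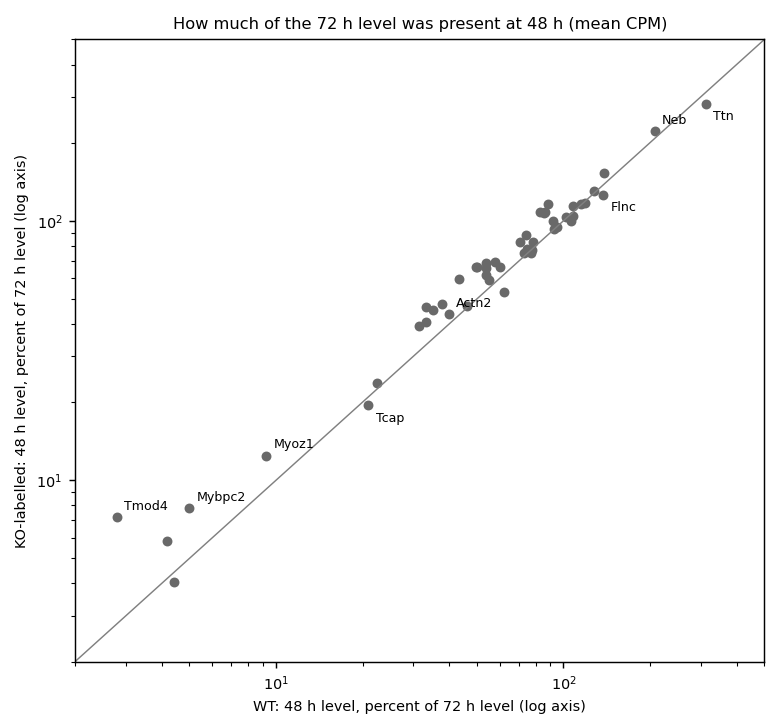
Mean level at 48 h as a percent of that at 72 h in WT (x axis, log scale) and KO-labelled cells (y axis, log scale), one point for each of the 49 tested genes, with the line of equality. Of the points, 39 lie above the line, among them the 4 genes below the filter's cutoff in myoblasts. Ttn and Neb lie beyond 200% on both axes and Tmod4 and Mybpc2 below 10%.

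The balance within pairs of related isoforms shifted with stage, mostly toward the fast-muscle member between 48 h and 72 h. Shares here are of the pair's summed TPM, which corrects for length. Tnnc1, slow and cardiac troponin C, made up 74.4% ± 2.13 (SD, n = 3) of Tnnc1 plus Tnnc2 in WT myoblasts, 72.0% ± 0.640 (n = 3) at 48 h and 48.8% ± 1.45 (n = 4) at 72 h. In KO-labelled cells the share was 72.1%, 71.1% and 47.0%. Slow Tnni1 was 72.9% of Tnni1 plus the fast gene Tnni2 in WT myoblasts, 86.5% at 48 h and 70.5% at 72 h. Slow Tnnt1 declined from 26.6% to 14.1% and 8.80% of Tnnt1 plus Tnnt3 in WT cells, and in KO-labelled cells from 27.0% to 11.4% and 7.33%. The embryonic and atrial light chain gene Myl4 was 46.4%, 47.5% and 39.5% of Myl4 plus Myl1, but 25.3%, 26.8% and 20.4% when counts were divided by the longest transcript instead. Among alpha-actinins the shift was toward Actn2, away from the fast-fibre gene Actn3: Actn2 went from 49.8% ± 0.386 of Actn2 plus Actn3 in WT myoblasts to 73.0% ± 0.135 in fused myotubes, and in KO-labelled cells from 44.8% ± 1.56 to 74.7% ± 0.0944. Of Lmod2 plus Lmod3 at 48 h, Lmod2 made up 23.2% ± 0.478 in WT and 28.3% ± 0.613 (n = 2) in KO-labelled cells. These shares were not tested.

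In some members the balance of transcripts differed between stages, not only the level. Transcripts were described where their share of the gene's estimated counts moved by at least 25 percentage points between WT groups in genes with at least 10 CPM on average in every group, a rule set after the values were seen. The genes with such transcripts were Flnc, Pdlim3, Pdlim5, Obsl1, Tnnt2 and Ldb3. In filamin C, the 48-exon transcript Flnc-201 holds a wholly coding exon of 99 nt, exon 31 on chr6:29452799-29452897 (GRCm38, plus strand), which Flnc-202 lacks, and 99 nt keep the reading frame. Flnc-201 made up 78.7% ± 1.59 of Flnc counts in WT myoblasts, 26.6% ± 2.94 at 48 h and 4.38% ± 0.536 at 72 h. In KO-labelled cells it made up 83.7% ± 3.64, 18.8% ± 0.280 and 2.66% ± 0.0682, so the KO-labelled libraries lay above WT at 24 h, at 80.1% to 87.4% against 76.9% to 79.7%, and below it at 48 h and 72 h with no overlap. The skipped exon reads as follows.
Flnc exon 31: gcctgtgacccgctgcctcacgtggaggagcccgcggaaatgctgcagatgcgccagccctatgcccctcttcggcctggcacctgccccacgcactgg

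Pdlim3, also called ALP, exchanged internal coding exons. Pdlim3-201 carries an exon 4 of 188 nt (chr8:45908469-45908656, plus strand), whereas Pdlim3-203 has in its place exons 4 and 5 of 68 and 264 nt (chr8:45909019-45909086 and chr8:45913697-45913960). The share of Pdlim3-201 went from 69.2% ± 4.99 in WT myoblasts to 51.2% ± 2.25 at 48 h and 38.0% ± 0.140 at 72 h, and that of Pdlim3-203 from 29.3% to 39.9% and 60.7%. At 48 h Pdlim3-203 was at 45.8% and 47.7% in the 2 KO-labelled libraries against 38.5% to 41.3% in WT, and at 72 h the ranges overlapped, at 59.4% to 60.9% in KO-labelled cells and 60.5% to 60.9% in WT. The alternative exons are shown because they are the coding sequence exchanged.
Pdlim3-201 exon 4: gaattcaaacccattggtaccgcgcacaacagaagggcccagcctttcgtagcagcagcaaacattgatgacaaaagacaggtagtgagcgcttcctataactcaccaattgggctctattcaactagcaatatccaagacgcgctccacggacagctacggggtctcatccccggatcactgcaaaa
Pdlim3-203 exon 4: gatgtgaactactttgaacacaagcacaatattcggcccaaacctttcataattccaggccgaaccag
Pdlim3-203 exon 5: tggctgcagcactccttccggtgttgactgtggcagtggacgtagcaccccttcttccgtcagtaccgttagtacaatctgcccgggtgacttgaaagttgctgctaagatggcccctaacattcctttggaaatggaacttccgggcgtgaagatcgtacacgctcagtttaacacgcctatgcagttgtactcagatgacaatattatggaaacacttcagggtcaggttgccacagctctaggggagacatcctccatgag

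Pdlim5, whose total level was called between genotypes at no stage, went over from one transcript to others. Pdlim5-201, a transcript of 5016 nt, made up 73.0% ± 1.51 of Pdlim5 counts in WT myoblasts, 4.42% ± 0.452 at 48 h and 1.11% ± 0.220 at 72 h. The shorter Pdlim5-203, of 1722 nt, went from 5.89% to 41.1% and 75.1%, and Pdlim5-204, of 1755 nt, from 2.69% to 36.2% and back to 12.9%. These shares are of counts, without correction for length, so the long Pdlim5-201 makes up less of the RNA molecules than of the counts. At 48 h Pdlim5-201 was at 1.46% and 1.70% in KO-labelled libraries and at 4.02% to 4.91% in WT ones, and Pdlim5-203 was at 47.7% and 49.1% against 40.2% to 41.8%. Obsl1 went toward the 20-exon transcript Obsl1-202, from 25.7% ± 3.42 in WT myoblasts to 70.5% ± 1.04 at 48 h and 77.8% ± 1.20 at 72 h. At 48 h both KO-labelled libraries, at 69.8% and 70.2%, lay within the WT range of 69.3% to 71.3%. At 48 h these shares set 2 KO-labelled libraries against 3 WT ones, in genes picked after the values were seen. How often the groups separate at 48 h in transcripts of other genes was not computed, so no contrast between the 6 genes is drawn. In Tnnt2, the transcript Tnnt2-207, with the 30-nt coding exon 4 on chr1:135843785-135843814 (plus strand) that Tnnt2-202 and Tnnt2-212 lack, stood at 81.1% in WT myoblasts and 76.4% at 48 h and went to 50.9% at 72 h. KO-labelled cells had 76.5%, 77.0% and 49.6%. Ldb3-205, the leading Ldb3 transcript at 72 h, was at 51.1% ± 1.04 in KO-labelled cells at 48 h against 53.6% ± 2.44 in WT. Ldb3-201 went from 36.8% to 21.9% and 5.71% of Ldb3 counts in WT cells, while the 3 KO-labelled myoblast libraries spread from 5.14% to 45.0%. Kallisto assigns reads shared between transcripts by a model, and these shares were not tested.
Tnnt2-207 exon 4: aggaagactggagtgaagaagaggaggacg

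**Figure D5:**
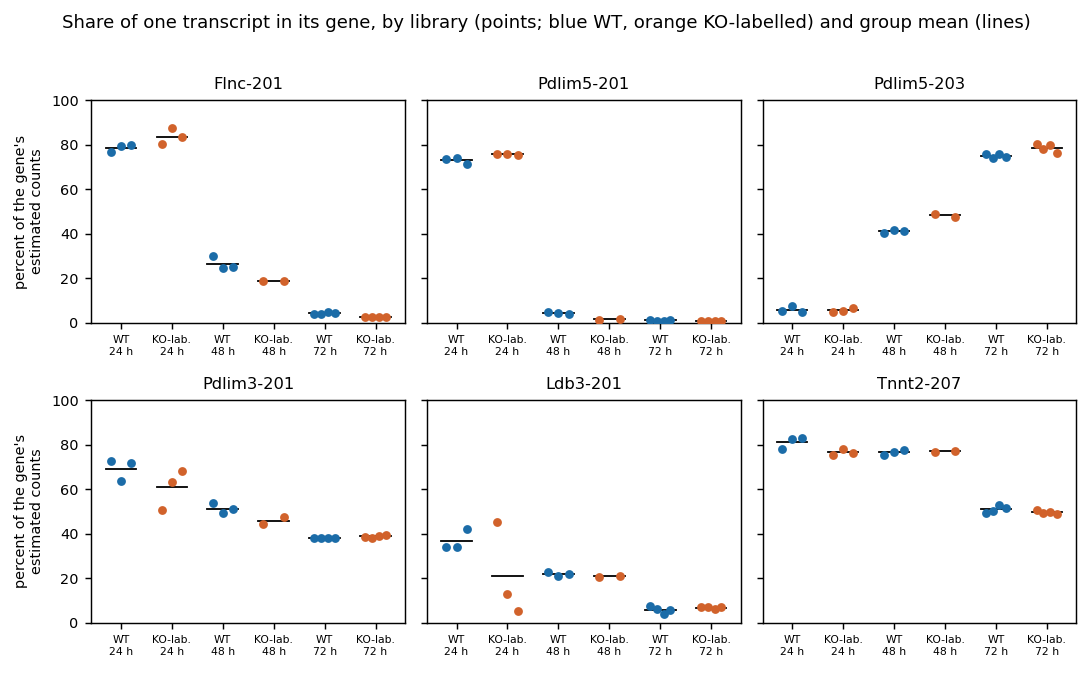
Percent of a gene's estimated counts assigned to one transcript (y axis) in each library (points, blue for WT and orange for KO-labelled cells), with group means (black lines), at 24 h, 48 h and 72 h. The group means of Flnc-201 and Pdlim5-201 go from over 70% at 24 h to under 5% at 72 h, and at 48 h both KO-labelled libraries lie below all WT libraries for these 2 transcripts.

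Promoters of these genes, most of which rose between 24 h and 48 h, were searched for letters bound by muscle regulators, from 250 bases before to 50 after RefSeq starts on GRCm38.p6. Of the 50 genes, 38 had an entry, with 45 windows. Windows with the E-box CAGCTG, a form bound by myogenic bHLH factors, made up 40.0% of the 45, against 16.3% of all 32851 windows, and the general E-box CANNTG, which includes it, was in 82.2% against 72.3%. A CArG box, the site of serum response factor, was in 13.3% against 1.63%, a MEF2 site in 17.8% against 3.19%, CATTCC, the M-CAT core, in 26.7% against 14.7%, and TATAAA in 15.6% against 13.6%. Both strands were read. No member had both a CArG box and a MEF2 site, and 12 had one of them: Acta1, Actc1, Ldb3, Myl3 and Myom1 a CArG box, and Klhl41, Mylk4, Myom3, Myoz2, Synpo2l, Ttn and Xirp2 a MEF2 site. These are matches of letters in a sequence, not measured binding.

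The promoters of 6 genes are shown, 3 for each kind of match: Acta1, Actc1 and Myom1, which were called lower in KO-labelled myoblasts and not called later, Myoz2 and Klhl41, which were among the genes with the largest differences at 48 h, and Ttn, which was highest at 48 h. Each run is the 200 bases before the RefSeq start, or for Myom1 the first 164 of them, since the other 36 lie in an annotated exon, with the CArG box or MEF2 site in capitals. Of the bases shown, 12 in Actc1 and the last 28 in Myoz2, which reach into the MEF2 site, also lie in an annotated exon. The box begins 73 bases before the start in Acta1, 47 in Actc1 and 99 in Myom1, and the MEF2 site 63 in Klhl41, 33 in Myoz2 and 166 in Ttn. The positions are chr8:123894776-123894975 (minus strand) for Acta1, chr2:114052876-114053075 (minus) for Actc1, chr17:71019357-71019520 (plus) for Myom1, chr2:69669920-69670119 (plus) for Klhl41, chr3:123034988-123035187 (minus) for Myoz2 and chr2:76982548-76982747 (minus) for Ttn.
Acta1 promoter: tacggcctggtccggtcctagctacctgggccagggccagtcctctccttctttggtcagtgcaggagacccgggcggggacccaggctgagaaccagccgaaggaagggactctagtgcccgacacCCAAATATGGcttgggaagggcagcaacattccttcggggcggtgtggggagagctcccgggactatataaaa
Actc1 promoter: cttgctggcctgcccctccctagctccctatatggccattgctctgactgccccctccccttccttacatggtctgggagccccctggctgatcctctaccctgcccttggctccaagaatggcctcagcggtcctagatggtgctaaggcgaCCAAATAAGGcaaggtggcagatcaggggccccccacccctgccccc
Myom1 promoter: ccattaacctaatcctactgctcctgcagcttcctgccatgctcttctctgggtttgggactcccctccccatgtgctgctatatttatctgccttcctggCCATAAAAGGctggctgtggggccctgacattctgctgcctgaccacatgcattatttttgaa
Klhl41 promoter: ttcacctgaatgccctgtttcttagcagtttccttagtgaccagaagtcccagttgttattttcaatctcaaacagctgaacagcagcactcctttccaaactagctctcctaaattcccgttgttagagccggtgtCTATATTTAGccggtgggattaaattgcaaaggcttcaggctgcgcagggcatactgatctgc
Myoz2 promoter: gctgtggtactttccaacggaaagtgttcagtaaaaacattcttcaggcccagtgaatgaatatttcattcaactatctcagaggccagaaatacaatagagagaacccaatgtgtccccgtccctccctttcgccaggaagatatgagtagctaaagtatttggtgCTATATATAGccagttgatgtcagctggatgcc
Ttn promoter: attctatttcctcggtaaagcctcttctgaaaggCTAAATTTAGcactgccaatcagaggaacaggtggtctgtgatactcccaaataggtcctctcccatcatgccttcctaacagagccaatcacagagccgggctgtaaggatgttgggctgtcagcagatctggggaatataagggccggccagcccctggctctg

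Outside the 50 genes, 60 other sarcomere, Z-disc and filament genes were followed as a list, of which 56 were tested. In myoblasts 15 of the 56 were called (26.8%, against 11.6% of all genes), 14 lower and 1 higher. Among the lower ones were Mypn, the Z-disc protein myopalladin (-0.74), and Hspb7, a small heat shock protein of muscle (-0.66), and the higher one was Pdlim2 (0.17). At 48 h 27 were called (48.2%, against 25.2% of all genes), 11 higher and 16 lower. Genes of striated muscle such as Myl2 (1.00), Ankrd23 (0.72) and the muscle cofilin Cfl2 (0.33) led the higher ones, and the lower ones were led by Flna, the non-muscle filamin (-2.02), Tmod2, a non-muscle tropomodulin (-1.56), and Myl9, the regulatory light chain of non-muscle and smooth muscle myosin (-1.22). At 72 h 17 were called (30.4%, against 13.0% of all genes), 8 higher and 9 lower, with Csrp2 (0.60) and Fhl2 (0.46) the highest and Flna (-1.01) and Mylk3 (-0.78) the lowest. Flna was thus lower at 48 h and 72 h, while Flnc, its striated-muscle relative, was lower by 0.22 at 48 h (-0.22) and not called at 72 h.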

How the data were processed

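The deposited files hold kallisto output for each transcript in 19 libraries. Per the labels' protocols, RNA was purified with an RNeasy micro kit and sequenced from TruSeq mRNA libraries. The submitters' processing notes name bcl2fastq 2.20, fastp 0.20.0, kallisto 0.46.1, edgeR 3.36 and build GRCm38.p6. Estimated counts were deposited per transcript, as kallisto assigns reads to transcripts by a model, with the effective length used and with TPM as deposited by the authors, scaled per length. Strand use and trimming settings are not given in the sources used here. Replicates were not pooled.

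Of 121843 transcripts, 121018 matched GENCODE M21, of which 120744 had the same length, and the 825 unmatched ones took 0.255% to 0.507% of counts and were left out. Estimated counts were summed per gene and rounded, and genes with low counts were removed with filterByExpr. All 19 libraries entered 1 edgeR 4.0.16 quasi-likelihood fit (R 4.3.3, limma 3.58.1) with 6 groups and TMM scaling, which gave 12 comparisons. Benjamini-Hochberg adjustment ran over 15123 genes. The SE is the fold change divided by the square root of F. The common biological variation was 4.03%. The depth of 16168131 to 30742634 counts per library limits genes below about 1 CPM. Sequences came from RefSeq promoter tables and GENCODE transcripts.

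The 50 genes, the 60 other sarcomere genes and the marker lists were chosen with earlier results of these data known. The genes given by library come mainly from those ranked highest or lowest, and not every such gene is shown. The ranks used were up to 5 called genes in each direction per genotype comparison, and the 3 highest and 3 lowest per WT stage change. Myl12b, with 2 gene identifiers, was left out of the list of other genes. The fit was tested on simulated data with 200 changed genes. Alternatives were DESeq2 1.42.0 and its size factors, no TMM, other filters, 2 length corrections, a replicate block, fits of the compared groups alone and each library left out. Whether same-numbered WT and KO-labelled libraries deviate together was checked by correlation. The same alternatives were computed for Glud1 after its values were seen.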

Additional observations from a re-analysis of the deposited data

Results flagged for a closer look

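Of 99 groups of 4 libraries tested with Dixon's criterion, 7 had 1 library apart from the rest, where chance gives about 1 in 20. In KO-labelled fused myotubes, replicate 4 had 818.2 CPM of Neb against 582.6 to 614.5 CPM in the others, 5374 CPM of Actc1 against 5591 to 5615 CPM, and 173.7 CPM of Myoz2 against 185.8 to 187.4 CPM. In WT fused myotubes, replicate 1 had 4704 CPM of Actc1 against 5184 to 5215 CPM and 568.9 CPM of Tmod1 against 552.8 to 555.1 CPM. Replicate 4 of that group had 116.5 CPM of Myot against 138.0 to 140.7 CPM, and 0.04121 CPM of Myl3, which was at 0 in the others. The call of Neb at 72 h held in each setting run.

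The difference between genotypes itself changed with stage by the interaction test for the following genes. From 24 h to 48 h it moved by 1.055 for Unc45b (edgeR adjusted p = 1.161e-07), by 0.9883 for Myom1 (edgeR adjusted p = 1.501e-09), by 0.9625 for Tmod1 (edgeR adjusted p = 4.745e-08), by 0.9566 for Mylpf (edgeR adjusted p = 7.175e-08) and by 0.9184 for Myoz2 (edgeR adjusted p = 0.001237), on the log2 scale. From 24 h to 72 h it moved by 0.984 for Myom1, 0.8958 for Mylpf, 0.8591 for Acta1, 0.8321 for Ldb3 and 0.7571 for Myom3, with edgeR adjusted p-values from 1.077e-09 (Myom1) to 5.727e-07 (Acta1). From 48 h to 72 h it moved by -0.4906 for Myom2, -0.4648 for Lmod2, -0.4183 for Myoz2, -0.4049 for Tnnt3 and -0.3968 for Unc45b, with edgeR adjusted p-values from 2.123e-07 (Lmod2) to 0.0003121 (Myoz2). These tests share libraries.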

How the results depend on the processing

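Of 447 called results for single genes, 12515 values were computed under 28 alternatives, of which 12512 kept their sign, 12319 were also called and 195 were no longer called. Counts of called genes stayed within 1.5 times for all but 3 comparisons. The 72 h genotype count of 19 was 9 with the effective-length offset and 11 to 19 when single libraries were left out, with 11 without WT fused replicate 1 and 12 without KO-labelled fused replicate 3. The 48 h genotype count of 28 ranged from 16, without KO-labelled replicate 2, to 30. The change of the genotype difference from 48 h to 72 h gave 16 genes and 10 with the offset. In the step from 48 h to 72 h the sign turned with the offset for Ldb3 (0.14) and Mylk4 (0.17) in WT cells, and for Ldb3 (0.0050), Mylk4 (0.18) and Obsl1 (-0.34) in KO-labelled cells, and with the length trend removed for Obsl1 (0.011) in WT cells. The causes were not tested. A replicate block left 37, 30 and 18 genes called between genotypes at the 3 stages. Same-numbered libraries correlated between -0.0733 and 0.123, and differently numbered ones between -0.189 and 0.179. The check thus showed no pairing by number, but with 2 to 4 libraries in a group it cannot exclude it. Genes below 1 CPM in a group have wide errors, as for Tmod4 at 48 h (SE 0.73). Glud1 was called lower at all 3 stages with the offset, and at 48 h without TMM (-0.14), and in no other setting run.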
